A study of Rattus norvegicus with 48 samples.

Results

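Eno3 (ENSRNOG00000004078), Pfkfb1 (ENSRNOG00000000165), Gpd1 (ENSRNOG00000056457) and Ppp1r3c (ENSRNOG00000018494) are 4 of the 31998 genes counted in rat plantaris and soleus muscle, and were chosen by name as genes of glycolysis and glycogen handling in fast muscle. All 4 passed the filter on low counts, which kept 16960 genes. The 48 RNA sequencing libraries came from 24 female rats aged 14 months, of generation 19 of lines bred from a mixed stock for a low (LRT) or a high (HRT) response to endurance training. In each line 6 rats had 1 hindlimb cast in plantar flexion for 3 d (HI) and 6 separate rats were not cast (CTRL), and both muscles were taken from each rat, giving 8 groups of 6 libraries. All rats, CTRL included, had completed treadmill training earlier and received puromycin shortly before collection, and the muscles were weighed and snap frozen. The stock was genetically mixed, so the rats of a group are not copies of 1 genotype, and 1 collection time was studied.

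Glycolysis splits glucose or glycogen-derived sugar into pyruvate and is the main quick source of ATP in fast-twitch fibres. The plantaris is rich in fast fibres, and the soleus is a postural muscle of mainly slow fibres. Eno3 encodes beta-enolase, the muscle enolase that makes phosphoenolpyruvate. Pfkfb1 encodes a bifunctional enzyme that makes and removes fructose 2,6-bisphosphate, the activator of phosphofructokinase. Gpd1 encodes the cytosolic glycerol-3-phosphate dehydrogenase, which regenerates NAD+ for glycolysis and belongs to the glycerol phosphate shuttle. Ppp1r3c encodes PTG, a subunit that brings protein phosphatase 1 to glycogen and so promotes glycogen synthesis.

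The stretch of 250 bases before the gene start is shown for the genes listed in the RefSeq promoter table (build GRCr8), because the 4 genes share a low level in the same cast libraries described below. The Eno3 stretch lies at chr10:55868936-55869185 on the + strand, the Pfkfb1 stretch at chrX:22941926-22942175 on the + strand, and the Ppp1r3c stretch at chr1:243878528-243878777 on the - strand. Gpd1 has no entry there. Capitals mark each match to CANNTG, the E-box bound by MyoD-type and other helix-loop-helix factors, which reads the same on both strands.
Eno3: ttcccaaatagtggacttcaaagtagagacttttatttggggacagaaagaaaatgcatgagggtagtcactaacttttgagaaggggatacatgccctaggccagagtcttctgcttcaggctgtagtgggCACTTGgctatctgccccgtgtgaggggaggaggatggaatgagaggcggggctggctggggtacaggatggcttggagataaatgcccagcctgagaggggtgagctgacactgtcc
Pfkfb1: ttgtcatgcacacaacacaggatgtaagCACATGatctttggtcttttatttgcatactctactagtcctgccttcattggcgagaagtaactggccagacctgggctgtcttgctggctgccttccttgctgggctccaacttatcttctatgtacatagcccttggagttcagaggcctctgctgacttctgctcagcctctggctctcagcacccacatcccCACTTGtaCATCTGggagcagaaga
Ppp1r3c: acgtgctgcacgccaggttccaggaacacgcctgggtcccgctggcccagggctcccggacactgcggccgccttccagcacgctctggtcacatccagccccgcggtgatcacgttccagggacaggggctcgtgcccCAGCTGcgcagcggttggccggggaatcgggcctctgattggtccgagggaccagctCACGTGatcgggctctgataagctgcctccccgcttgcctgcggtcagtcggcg
Eno3 held 1 match, Pfkfb1 3 and Ppp1r3c 2, and 65.5% of the 33469 promoters searched over the same length held at least 1. The pair in Ppp1r3c included CACGTG, found in 5.59% of all promoters, and CAGCTG, found in 11.97%. CCAAT on either strand matched once in Pfkfb1 and once in Ppp1r3c and in 34.0% of all promoters. None of the 3 stretches held TATAAA or the MEF2 consensus on either strand, which were found in 12.9% and 2.96% of promoters. A match describes letters and not a bound site.

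Levels are given in CPM, the estimated counts of a gene per 1 M counts of its library after TMM scaling of the library size, where M is the mega prefix, and are compared between libraries for 1 gene at a time because gene lengths were not used. The sums over marker lists are weighted toward the listed genes with the highest CPM. Library totals lay between 26.8 M and 36.4 M counts. The lowest count of any of the 4 genes in any library was 342, for Pfkfb1. Fold changes are log2 values from 1 edgeR quasi-likelihood fit of all 48 libraries with RNA integrity number (RIN) as covariate, followed by the standard error (SE). A gene was called when its Benjamini-Hochberg adjusted p over the 16960 genes was under 0.05. In whole muscle, fewer fibres of a type and less RNA per fibre cannot be told apart. The fast fibre genes matched the muscle labels, with a median summed level of 20914 CPM in LRT CTRL plantaris and 2153 CPM in LRT CTRL soleus over the 5 of 12 listed genes that had an identifier.

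**Figure D1:**
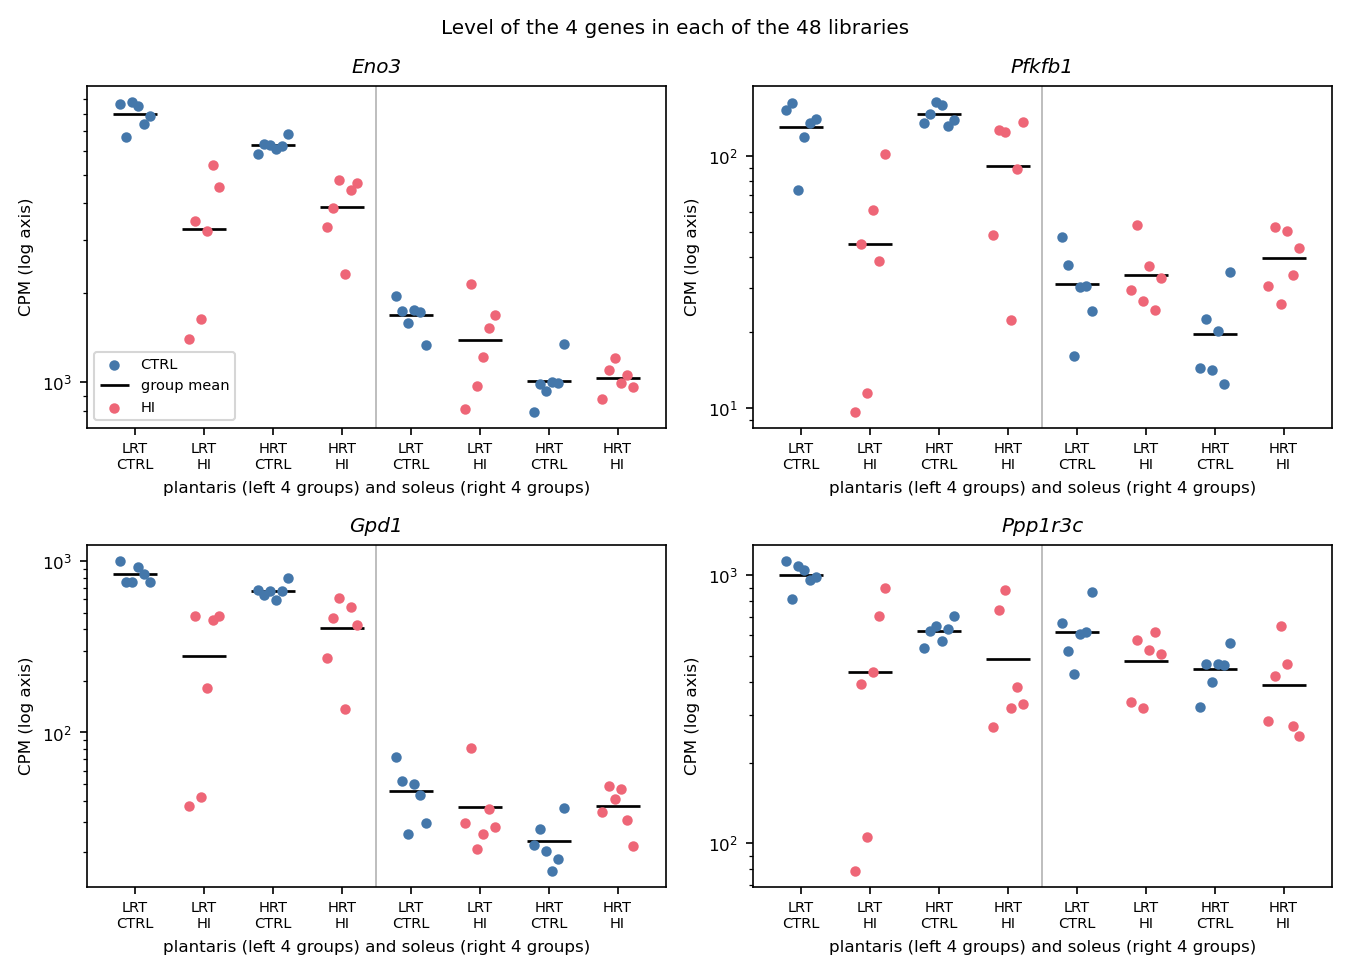
CPM of Eno3, Pfkfb1, Gpd1 and Ppp1r3c on a log axis, 1 point per library, in the 8 groups of muscle, line and treatment, with the group mean as a bar. Plantaris CTRL libraries of Eno3, Pfkfb1 and Gpd1 sit above all soleus CTRL libraries of the same line, and 2 LRT HI plantaris libraries sit far below the other 4 for Gpd1, at 37.3 and 42.0 CPM.

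Without a cast, Eno3, Pfkfb1 and Gpd1 were higher in plantaris than in soleus of both lines. Ppp1r3c was not called, except in LRT with the replicate number as a block. Gpd1 showed the widest difference of the 4 genes. Its level in LRT CTRL plantaris was 749 CPM at the lowest, 797 at the median and 1006 at the highest. In LRT CTRL soleus it was 25.5, 46.6 and 71.8 CPM. No library of one muscle reached the other, and the mean was 18.5-fold higher in plantaris. In HRT CTRL the Gpd1 values were 591, 667 and 790 CPM in plantaris against 15.5, 21.2 and 36.4 CPM in soleus, a 28.8-fold difference of the means. The log2 difference was 4.23 (SE 0.46, adjusted p = 6.3e-10) in LRT and 4.86 (SE 0.47, adjusted p = 2.6e-11) in HRT.

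Eno3 was the steadiest of the 4 in uncast HRT plantaris, with a coefficient of variation of 5.08% over its 6 libraries. It lay at 6682, 8202.5 and 8809 CPM (lowest, median and highest) in LRT CTRL plantaris and at 1337, 1728 and 1950.1 CPM in LRT CTRL soleus. In HRT CTRL it lay at 5885, 6264 and 6851 CPM in plantaris and at 791, 987 and 1342 CPM in soleus. The muscles did not overlap in either line, and the log2 difference was 2.26 (SE 0.23, adjusted p = 1.1e-10) in LRT and 2.65 (SE 0.23, adjusted p = 1.2e-12) in HRT. Pfkfb1 lay at 73.7, 138 and 163 CPM in LRT CTRL plantaris against 16.1, 30.4 and 47.7 CPM in soleus. In HRT CTRL it lay at 132, 144 and 165 CPM against 12.5, 17.3 and 34.8 CPM. The groups were again separate, with log2 differences of 2.11 (SE 0.39, adjusted p = 2.9e-05) in LRT and 2.92 (SE 0.40, adjusted p = 1.0e-07) in HRT.

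Ppp1r3c differed less between the muscles. It lay at 816, 1018 and 1137 CPM in LRT CTRL plantaris and at 427, 611 and 865 CPM in LRT CTRL soleus, where the highest soleus library passed the lowest plantaris library. In HRT CTRL it lay at 535, 626 and 703 CPM in plantaris and at 323, 465 and 561 CPM in soleus, and 5 of 6 plantaris libraries were above all soleus libraries. The log2 difference was 0.63 (95% interval -0.05 to 1.32, adjusted p = 0.168) in LRT and 0.43 (-0.24 to 1.09, adjusted p = 0.34) in HRT. With the replicate number as a block, Ppp1r3c was called in LRT (0.77, adjusted p = 0.017). Without it, 3 of the 4 genes were called higher in plantaris in each line, where 17% of all tested genes were called higher in LRT and 18.9% in HRT. Groups without overlap in this direction were found for the same 3 genes, and for 12.6% of all genes in LRT and 13.2% in HRT. The identifiers of the 4 come from a list made with the LRT CTRL plantaris libraries, so the LRT values are not independent of the choice.

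**Figure D2:**
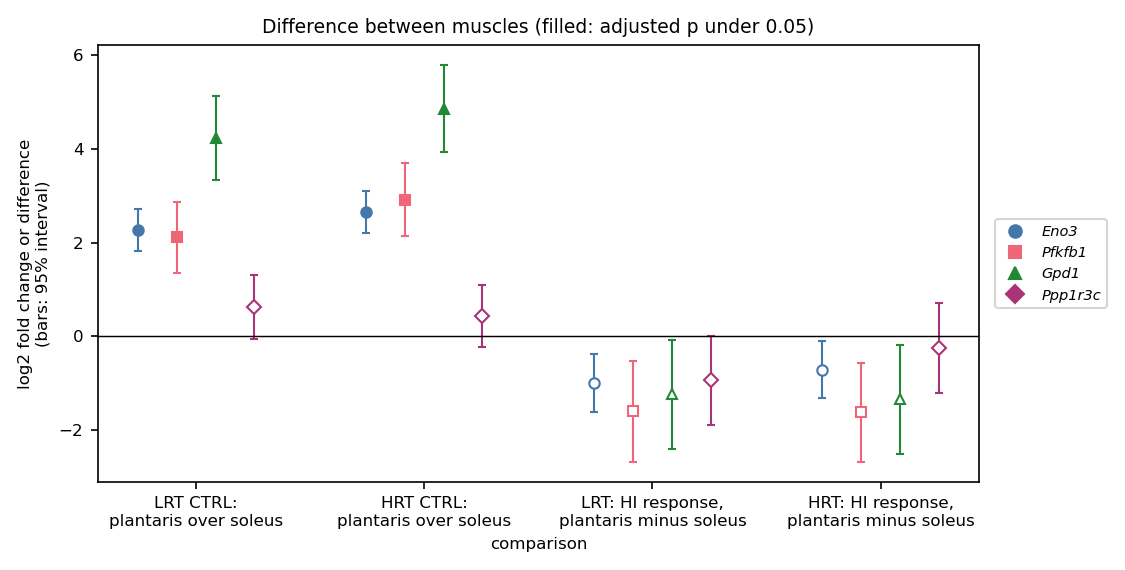
Log2 differences between plantaris and soleus of CTRL rats, and log2 differences of the HI response between the muscles (plantaris minus soleus), for the 4 genes in each line, with 95% intervals. Filled symbols passed an adjusted p of 0.05, as Eno3, Pfkfb1 and Gpd1 did for the muscle difference in both lines, and no symbol of the response difference is filled.

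In LRT plantaris all 4 genes were lower after the cast. The identifiers of the 4 genes are known here only from a list of genes already selected for a change in LRT plantaris, so these values are a description and nothing is read from their count, beside a background of 13.6% of genes called lower. Eno3 fell from 6682, 8202.5 and 8809 CPM in CTRL to 1391, 3355 and 5402 CPM in HI (lowest, median and highest), and every HI library lay below every CTRL library. Its log2 fold change was -1.28 (SE 0.22, adjusted p = 5.1e-05). Gpd1 also separated completely, at 749, 797 and 1006 CPM in CTRL and 37.3, 316 and 481 CPM in HI, with a log2 fold change of -1.57 (SE 0.41, adjusted p = 0.0038). Groups that separated in this direction made up 5.74% of all genes.

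Pfkfb1 and Ppp1r3c each had 5 of 6 LRT HI plantaris libraries below all CTRL libraries. Pfkfb1 lay at 73.7, 138 and 163 CPM in CTRL and at 9.64, 41.8 and 102 CPM in HI, a log2 fold change of -1.51 (SE 0.39, adjusted p = 0.0029). Ppp1r3c lay at 816, 1018 and 1137 CPM in CTRL and at 78.7, 414 and 897 CPM in HI, a log2 fold change of -1.27 (SE 0.35, adjusted p = 0.0051). In both genes the library that overlapped CTRL was that of replicate 6.

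The spread within LRT HI plantaris was wide, and the same 2 libraries were lowest for all 4 genes. The library of replicate 1 held 17.4% of the CTRL mean of Eno3, 7.38% of that of Pfkfb1, 4.45% of that of Gpd1 and 7.82% of that of Ppp1r3c. The library of replicate 3 held 20.4%, 8.8%, 5.01% and 10.5% in the same order. In the other 4 libraries the share lay between 40.3% and 67.6% for Eno3, between 29.5% and 78.3% for Pfkfb1, between 21.6% and 57.4% for Gpd1 and between 39.1% and 89.1% for Ppp1r3c. The RIN of both low libraries was 8.3, and their totals of 32.1 M and 27.1 M counts lay inside the range of the group. The summed fast fibre, slow fibre and adipocyte genes were each lowest in the same 2 libraries. The fast fibre sum was 5725 and 6328 CPM in the 2 libraries and between 10376 and 14434 CPM in the other 4, against 17071 to 22779 CPM in CTRL. The adipocyte sum over 6 genes was 92.8 and 111 CPM in the 2 libraries and between 124 and 192 CPM in the other 4. Dgat2 held the largest part of it (group mean 70.6 of 131 CPM), and 3 of the 6 genes were called higher and 3 lower. The slow fibre sum over 3 genes was 82.5 and 93.0 CPM in the 2 libraries and between 120 and 358 CPM in the other 4, against 267 to 518 CPM in CTRL. Fabp3 held the largest part of that sum (group mean 136 of 179 CPM). The fibroblast sum did not follow, being lowest in replicate 5 (131 CPM, against 180 and 148 CPM in replicates 1 and 3). The red blood cell sum was lowest in replicate 1 (185 CPM), while that of replicate 3 (287 CPM) lay above that of replicate 5 (252 CPM). The part of these lists in the result was not tested.

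With each library left out in turn all 4 genes stayed called in LRT plantaris. With both low libraries left out together, a setting chosen after their values were seen, Eno3 (-0.91, adjusted p = 0.0028) and Gpd1 (-1.02, adjusted p = 0.044) stayed called, and Pfkfb1 (-0.98, adjusted p = 0.061) and Ppp1r3c (-0.75, adjusted p = 0.075) did not. Over all genes that setting lowered the number called from 4862 to 1727.

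**Figure D3:**
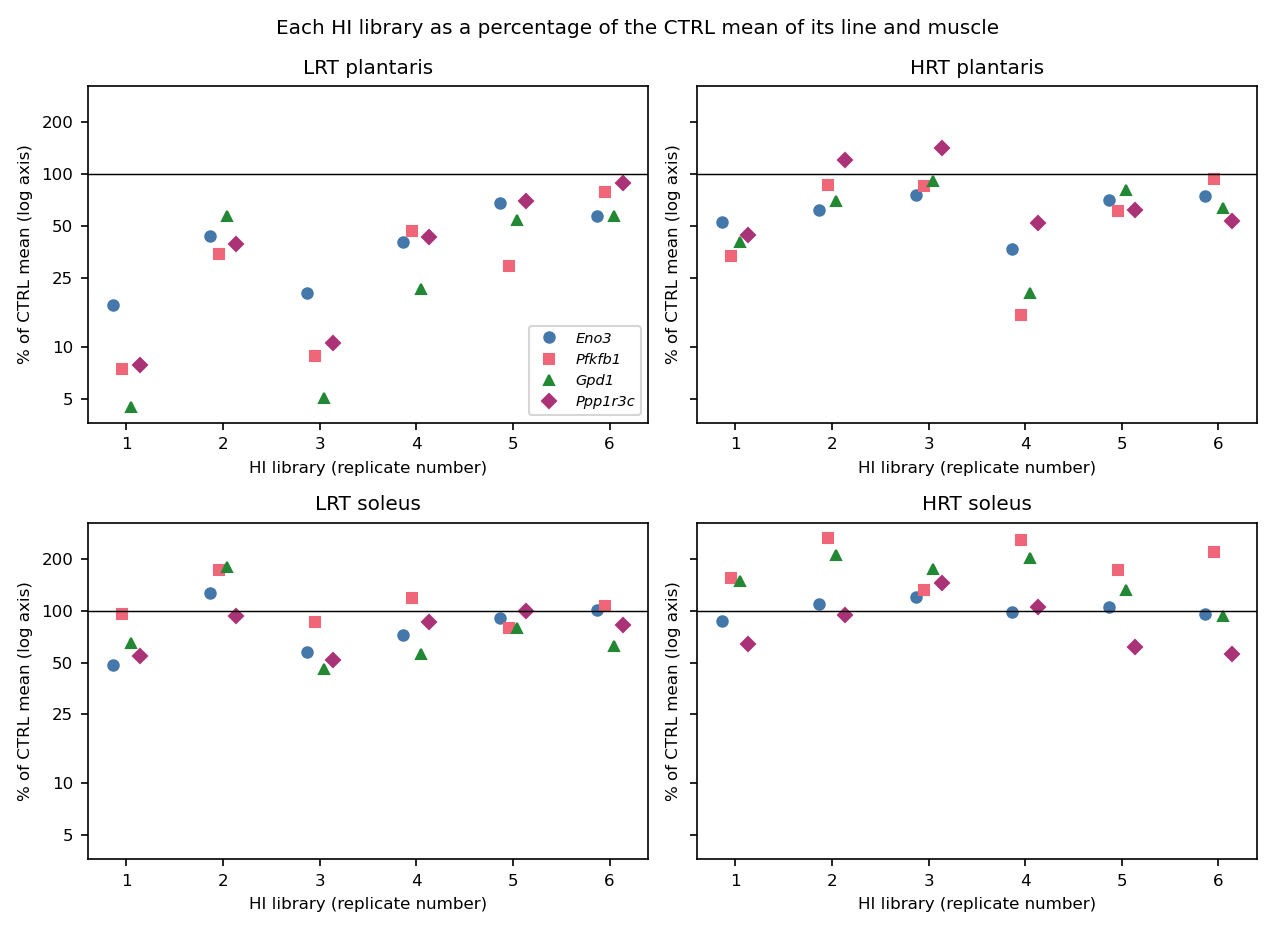
Each HI library as a percentage of the CTRL mean of its line and muscle, on a log axis, for the 4 genes. In LRT plantaris the libraries of replicates 1 and 3 lie at 4.45% to 20.4%, and in HRT plantaris the library of replicate 4 is lowest for Eno3, Pfkfb1 and Gpd1.

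In HRT plantaris Eno3 alone of the 4 genes was called lower, beside 5.85% of all tested genes. It lay at 5885, 6264 and 6851 CPM in CTRL and at 2313, 4142 and 4778 CPM in HI, and the groups did not overlap, as in 5.4% of all genes. Its log2 fold change of -0.68 (SE 0.22, adjusted p = 0.036) was past the threshold by little. Leaving out 1 library ended the call for 8 of the 12 libraries compared (CTRL replicates 2 to 6 and HI replicates 1, 2 and 4), with the adjusted p reaching 0.111 without HI replicate 4. Its value ranged from -0.76 to -0.58 over the 12.

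Gpd1 lay at 591, 667 and 790 CPM in HRT CTRL plantaris and at 138, 445 and 609 CPM in HI, and 5 of 6 HI libraries were below all CTRL libraries. Its log2 fold change was -0.70 (95% interval -1.49 to 0.10, adjusted p = 0.276). Pfkfb1 lay at 132, 144 and 165 CPM in CTRL and at 22.4, 107 and 136 CPM in HI, with 5 of 6 HI libraries below CTRL and a log2 fold change of -0.67 (-1.39 to 0.06, adjusted p = 0.247). Replicate 4 was the lowest HI library for both, at 20.6% of the CTRL mean for Gpd1 and 15.3% for Pfkfb1. Its summed fast fibre level was 7079 CPM, below the 11513 to 13601 CPM of the other 5 HI libraries. Its fibroblast sum (152 CPM) was also the lowest of the group. The slow fibre sum of replicate 4 (207 CPM) lay above that of replicate 1 (140 CPM). Its adipocyte sum (177 CPM) and its macrophage and neutrophil sum (7.05 CPM) were the highest of the group. The part of these lists was not tested.

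Ppp1r3c split the HRT HI plantaris libraries. Replicates 2 and 3 lay at 744 and 880 CPM, above all CTRL libraries, which spanned 535 to 703 CPM. The other 4 lay between 273 and 384 CPM, below all of them. The log2 fold change of -0.39 (95% interval -1.06 to 0.28, adjusted p = 0.495) averages over these directions.

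The difference between the lines in the response of plantaris (DELTA, the LRT log2 fold change minus that of HRT) was tested as an interaction, and none of the 4 genes was called. The edgeR test called 0 of 16960 genes (0%), and 1060 had an unadjusted p under 0.05. DELTA was -0.59 (95% interval -1.19 to 0.00) for Eno3, -0.84 (-1.87 to 0.19) for Pfkfb1, -0.87 (-1.98 to 0.24) for Gpd1 and -0.88 (-1.81 to 0.05) for Ppp1r3c, with adjusted p between 0.811 and 0.824. These intervals still hold differences of more than 1 log2 unit. With both low LRT libraries left out, the values were -0.24, -0.33, -0.34 and -0.39 in the same order. The fall in LRT and the smaller value in HRT are thus not shown to differ for any of the 4.

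**Figure D4:**
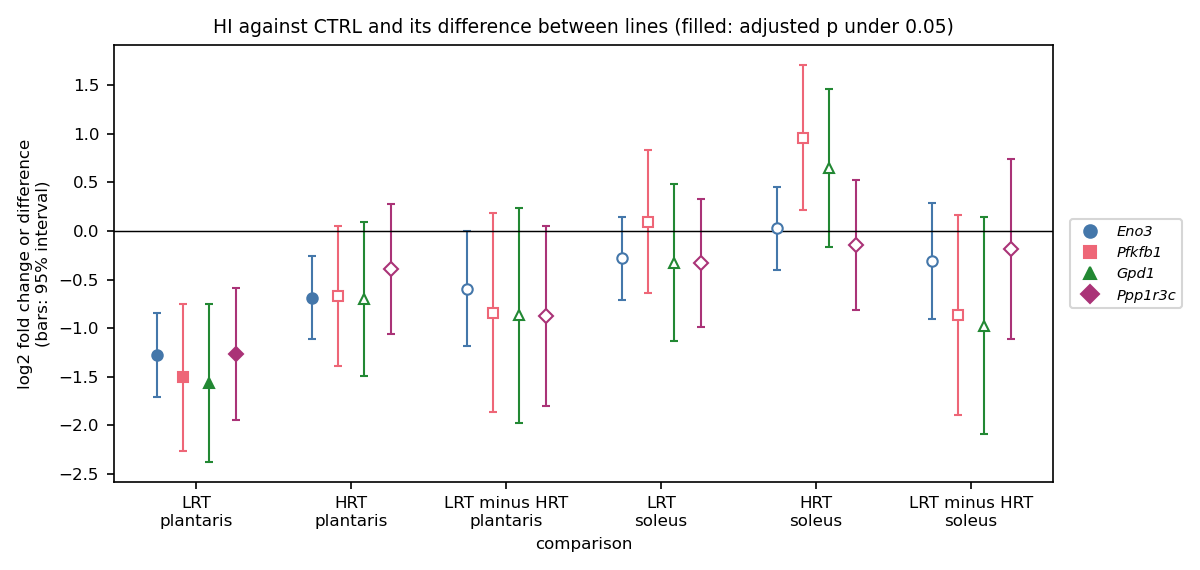
Log2 fold changes of HI against CTRL in each line and muscle, and the difference between the lines (LRT minus HRT), for the 4 genes with 95% intervals. Filled symbols passed an adjusted p of 0.05: all 4 genes in LRT plantaris and Eno3, at -0.68, in HRT plantaris.

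In soleus none of the 4 genes was called after the cast in either line, beside 13.9% of all genes called in LRT and 16.2% in HRT. In LRT soleus the log2 fold changes were -0.28 (95% interval -0.71 to 0.15) for Eno3, 0.10 (-0.64 to 0.84) for Pfkfb1, -0.33 (-1.14 to 0.48) for Gpd1 and -0.33 (-0.99 to 0.33) for Ppp1r3c, with adjusted p from 0.424 to 0.9. The LRT HI libraries spread more widely than CTRL for Eno3, at 812, 1369 and 2133 CPM (lowest, median and highest) against 1337, 1728 and 1950.1 CPM. For Eno3 and Ppp1r3c the libraries of replicates 1 and 3 were again the 2 lowest of the LRT HI soleus group. The Gpd1 library of replicate 2, at 81.1 CPM, was above all CTRL libraries, while the other 5 HI libraries lay between 20.9 and 35.8 CPM.

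In HRT soleus the values of Pfkfb1 and Gpd1 lay above zero. Pfkfb1 lay at 12.5, 17.3 and 34.8 CPM in CTRL and at 25.9, 38.5 and 52.2 CPM in HI, and 3 HI libraries were above all CTRL libraries. Its log2 fold change was 0.96 (SE 0.38, 95% interval 0.21 to 1.71), and its adjusted p of 0.075 missed the threshold. It was called with each muscle fitted alone (0.88, adjusted p = 0.045) and with the replicate block (1.03, adjusted p = 0.040). That block groups separate CTRL and HI rats by number, a matching that the design does not give. CTRL replicate 6 was the highest of its group at 34.8 CPM, and without it the value was 1.21 with an adjusted p of 0.042. Gpd1 lay at 15.5, 21.2 and 36.4 CPM in CTRL and at 21.8, 37.6 and 48.8 CPM in HI, a log2 fold change of 0.65 (-0.17 to 1.46, adjusted p = 0.29). Eno3 was at 0.03 (-0.40 to 0.46) and Ppp1r3c at -0.14 (-0.81 to 0.52). In the same HI libraries all 6 red blood cell genes and both macrophage and neutrophil genes that had an identifier, of 6 listed, were called higher, where 7.95% of all genes were, with summed medians of 297 and 1156 CPM, and of 1.15 and 4.91 CPM, in CTRL and HI. The identifiers of all these genes come from the paper's list of genes changed in HRT soleus, so their count is no independent evidence. Dgat2 and Pln, named below, are on that list too. The red blood cell sums of HI ran from 224 to 10598 CPM, and 2 of the 6 HI libraries lay inside the CTRL range of 163 to 611 CPM. Without replicate 5, the highest, the HI median was 761 CPM. Of the 6 adipocyte genes 1, Dgat2 (2.78), was called higher there, and the adipocyte sum had medians of 80.7 CPM in CTRL and 118 CPM in HI. Of the 3 slow fibre genes Pln (1.14) was called higher, although the slow fibre sum had medians of 1743 CPM in CTRL and 1052 CPM in HI. Of the 3 fibroblast genes Col1a1 (-1.49) was called lower, and none of the 5 fast fibre genes was called, where 8.23% of all genes were called lower. The part of these lists in the values was not tested.

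DELTA in soleus was -0.31 (95% interval -0.90 to 0.29) for Eno3, -0.86 (-1.89 to 0.17) for Pfkfb1, -0.98 (-2.09 to 0.14) for Gpd1 and -0.19 (-1.11 to 0.74) for Ppp1r3c. None was called, with adjusted p from 0.606 to 0.936, beside 0.0295% of all genes.

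The response was also compared between the muscles of each line, with the plantaris and soleus libraries taken as independent although both came from the same rats. In LRT the log2 fold change of plantaris minus that of soleus was -0.997 (SE 0.31, adjusted p = 0.071) for Eno3, -1.60 (SE 0.55, adjusted p = 0.101) for Pfkfb1, -1.24 (SE 0.59, adjusted p = 0.253) for Gpd1 and -0.94 (SE 0.49, adjusted p = 0.298) for Ppp1r3c. None was called, beside 2.18% of all genes. With limma-voom, Eno3 (-1.10) and Pfkfb1 (-2.08) were called, and all 4 were called once the replicate number joined the 2 muscles as a block, so the calls in this comparison change with the test and with how the libraries are matched. The LRT plantaris change that selected the identifiers is part of this difference. In HRT the values were -0.71 (SE 0.31), -1.63 (SE 0.53), -1.35 (SE 0.59) and -0.25 (SE 0.49) in the same order, with adjusted p from 0.198 to 0.885, beside 0.0943% of all genes called.

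Between the lines without a cast, none of the 4 genes was called in plantaris, where 0.525% of all genes were, or in soleus, where 1.45% were. Ppp1r3c in plantaris was higher in all 6 LRT CTRL libraries (816 to 1137 CPM) than in any HRT CTRL library (535 to 703 CPM), a separation in this direction found for 1.83% of all genes. Its log2 difference of 0.70 (SE 0.34) had an adjusted p of 0.448. The other 3 genes overlapped in plantaris, at 0.35 (SE 0.22) for Eno3, -0.17 (SE 0.37) for Pfkfb1 and 0.32 (SE 0.40) for Gpd1. In soleus all 4 values were above zero, and Eno3 came nearest to the threshold at 0.74 (SE 0.22, adjusted p = 0.068), with 5 of 6 LRT libraries above all HRT libraries. With the replicate number as a block, Eno3 was called there (0.77, adjusted p = 0.045). That block groups separate rats of both lines by number, a matching that the design does not give. Eno3 was also called by DESeq2 (0.74, adjusted p = 0.031) and without HRT CTRL replicate 6 (0.84, adjusted p = 0.043). Gpd1 was at 0.95 (SE 0.41, adjusted p = 0.247), Pfkfb1 at 0.64 (SE 0.37) and Ppp1r3c at 0.49 (SE 0.34). Of the 5 fast fibre genes 2 were called higher in LRT than in HRT in CTRL soleus, beside 0.548% of all genes. The fast fibre sum there had medians of 2153 CPM in LRT and 1105 CPM in HRT. Of the 6 adipocyte genes 1 was called higher there, and no gene of the other marker lists was called. In CTRL plantaris no marker gene was called, and the fast fibre sum had medians of 20914 CPM in LRT and 15041 CPM in HRT. The part of these lists in the values was not tested.

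Ordered by group mean, Eno3 and Gpd1 began alike. Eno3 was highest in LRT CTRL plantaris (7988 ± 835 CPM, SD, n = 6), followed by HRT CTRL plantaris (6285 ± 320), HRT HI plantaris (3894 ± 949) and LRT HI plantaris (3280 ± 1578), and then by the 4 soleus groups, from 1678 ± 206 in LRT CTRL to 1006 ± 182 in HRT CTRL. Of these neighbours, the 2 HI plantaris groups and each pair of the soleus groups differed by less than the larger SD. Gpd1 followed from 837 ± 105 CPM in LRT CTRL plantaris through 670 ± 66.7, 409 ± 175 and 279 ± 217 CPM to the soleus groups, which spanned 23.3 ± 7.52 to 45.4 ± 16.8 CPM and were within 1 SD of their neighbours. Pfkfb1 was highest in HRT CTRL plantaris (147 ± 13.2 CPM), within 1 SD of LRT CTRL plantaris (131 ± 31.7 CPM). Its mean in LRT HI plantaris (44.7 ± 34.5 CPM) differed from that of HRT HI soleus (39.4 ± 10.9 CPM) by less than 1 SD. For Ppp1r3c only LRT CTRL plantaris (1007 ± 113 CPM) stood above its neighbour by more than the larger SD, and the other 7 groups lay between 391 ± 152 and 618 ± 59.0 CPM, each within 1 SD of the next.

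The genes most like each of the 4 are given by Pearson's r of log2 CPM over the 48 libraries, which share muscle, line and treatment, so these values are a description. Only 1141 genes carry a symbol here. For Eno3 the 3 closest of all 16959 other genes were Ldha (0.99), Pgk1 (0.98) and Pfkm (0.98), encoding lactate dehydrogenase A, phosphoglycerate kinase and muscle phosphofructokinase. For Gpd1 the closest were Pfkm (0.98) and Gpi (0.98), encoding glucose-6-phosphate isomerase, and the next named gene was Eno3 (0.97). For Pfkfb1 the closest was Slc37a4 (0.93), the glucose-6-phosphate transporter, and Mlf1 (0.92) was among the 3 closest. Ppp1r3c had lower values, with Car14 (0.85), a carbonic anhydrase, Cdc42ep3 (0.83) and Srl (0.83), and 5 genes with no symbol lay ahead of Srl.

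Among the 4 genes themselves, r over the 48 libraries was 0.97 for Eno3 with Gpd1, 0.88 for Pfkfb1 with Gpd1 and 0.84 for Eno3 with Pfkfb1. Ppp1r3c was less like the others, at 0.61 with Pfkfb1, 0.55 with Eno3 and 0.51 with Gpd1. Once each library was expressed as its deviation from its own group mean, Ppp1r3c reached 0.79 with Eno3, 0.79 with Gpd1 and 0.68 with Pfkfb1. For the other pairs r was lower than before this step, at 0.86 for Eno3 with Gpd1, 0.81 for Pfkfb1 with Gpd1 and 0.71 for Eno3 with Pfkfb1. The libraries of a rat and the low LRT HI plantaris libraries are shared by all these values.

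A list of 64 genes of glycolysis, its regulators, glycogen metabolism, sugar and pyruvate transport and the cytosolic NADH shuttles held 27 with an identifier, and the 23 apart from the 4 were all tested. Of these, 20 have their identifier from the same LRT plantaris list, so their count in that comparison is no independent evidence. In LRT plantaris 19 were called lower and 2 higher, where 13.6% and 15.1% of all genes were, with a median log2 fold change of -1.06 against 0.01 over all genes. The 3 with the smallest adjusted p were Pgp (-1.27, SE 0.17, adjusted p = 1.8e-06), a phosphoglycolate phosphatase, Gaa (1.22, SE 0.17, adjusted p = 4.4e-06), the lysosomal enzyme that degrades glycogen, and Pgk1 (-0.99, SE 0.16, adjusted p = 2.7e-05). Gaa and Aldoc (0.67, adjusted p = 0.043), an aldolase typical of brain, were the genes that rose. Aldoc had a mean of only 2.54 CPM in LRT CTRL plantaris and 4.05 CPM in LRT HI plantaris.

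The preselection bears on the other plantaris comparisons too, so the shares of all genes below are given for scale and nothing is read from them. In HRT plantaris 10 of the 23, all among the 20, were called lower and 1, Gaa (0.56, adjusted p = 0.028), higher, where 5.85% and 5.11% of all genes were, with a median of -0.56 against 0.02 over all genes. Glycolysis gave 5 of its 9 genes and the cytosolic NADH shuttles both of theirs, Mdh1 (-0.90) and Got1 (-0.92), which encode the cytosolic malate dehydrogenase and aspartate transaminase. None of the 5 glycogen genes was called lower. Pgp (-0.97, SE 0.17, adjusted p = 0.00034), Mpc1 (-0.75, SE 0.20, adjusted p = 0.011), a subunit of the mitochondrial pyruvate carrier, and Pgam2 (-1.07, SE 0.29, adjusted p = 0.015), the muscle phosphoglycerate mutase, had the smallest adjusted p.

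In soleus 3 of the 23 were called in LRT and 4 in HRT, where 13.9% and 16.2% of all genes were. Aldoc has its identifier from the paper's lists of genes changed in LRT and HRT soleus, and Pfkfb3 from the HRT soleus list. These counts are therefore no independent evidence. Of the 20 from the LRT plantaris list, 2 were called in each line, both lower. Mpc1 (-0.91, adjusted p = 0.0017) and Mdh1 (-0.83, adjusted p = 0.019) fell and Aldoc (1.95, SE 0.26, adjusted p = 1.7e-05) rose in LRT. The level of Aldoc was low, with a mean of 2.15 CPM in LRT CTRL soleus and 8.29 CPM in LRT HI soleus. In HRT the same 3 were called in the same directions, with Aldoc at 1.13 (adjusted p = 0.0024), Mpc1 at -0.65 (adjusted p = 0.019) and Mdh1 at -0.74 (adjusted p = 0.034), and Pfkfb3 rose (1.25, SE 0.31, adjusted p = 0.0047). Pfkfb3 encodes another form of the enzyme that Pfkfb1 encodes. The list medians were -0.17 in LRT and 0.04 in HRT.

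Between the muscles of CTRL rats, 15 of the 23 were called higher in plantaris in each line, with 2 lower in LRT, Mpc1 and Mdh1, and 0 lower in HRT. Of these 15, 14 were among the 20, which were listed with the help of the same LRT CTRL plantaris libraries. Of all genes 17% were called higher and 15.6% lower in LRT, and 18.9% and 19.9% in HRT. The medians were 1.58 in LRT and 1.80 in HRT. Pkm (2.76 and 3.03), Pgk1 (2.15 and 2.23) and Pfkm (2.35 and 2.57), named in LRT and then HRT, had the smallest adjusted p, between 4.2e-15 and 5.4e-12. In the difference of the response between the muscles of LRT, 5 of the 23 were called lower and 1 higher, where 0.991% and 1.19% of all genes were, led by Pgp (-1.16, adjusted p = 0.011), Slc37a4 (-1.63, adjusted p = 0.011) and Pgam2 (-1.62, adjusted p = 0.033). This difference contains the LRT plantaris change on which 20 of the 23 identifiers were listed, so its count is no independent evidence either. In HRT and in both DELTA comparisons none of the 23 was called.

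**Figure D5:**
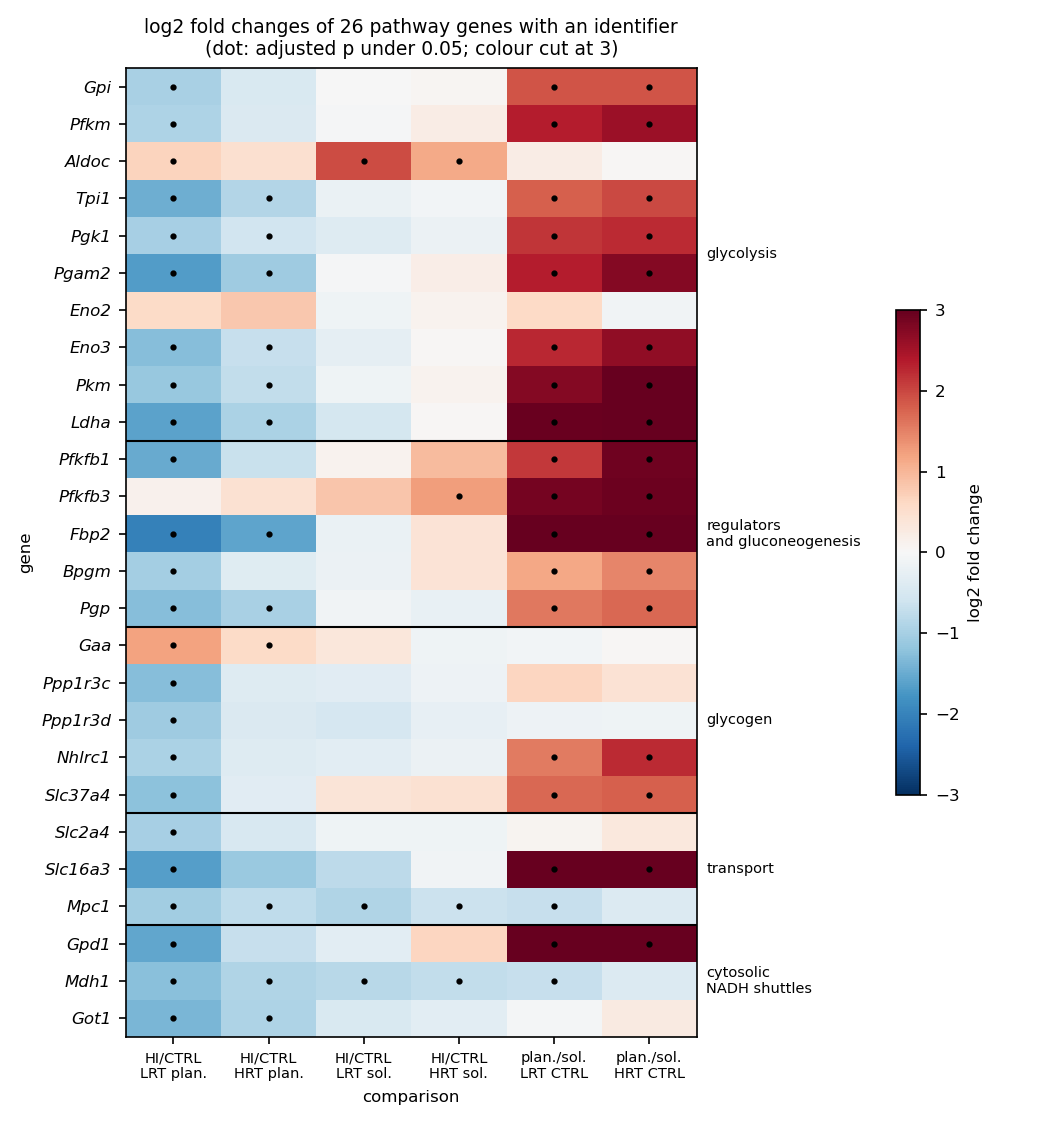
Log2 fold changes of 26 pathway genes with an identifier, by list, in 6 comparisons, with blue for lower, red for higher and a dot for an adjusted p under 0.05. Most genes are blue in LRT plantaris, among them Eno3 at -1.28, and red in the columns of plantaris over soleus.

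Other marker lists were measured beside the fall in LRT plantaris, where 13.6% of all genes were called lower and 15.1% higher. The marker genes called lower there all have their identifier from the paper's list of genes changed in LRT plantaris. The fibroblast and adipocyte genes called in HRT plantaris are likewise on its list for HRT plantaris. The shares of all genes are given for scale, and the counts are no independent evidence. In HRT plantaris 5.85% were called lower and 5.11% higher. Of 5 fast fibre genes 3 were called lower in LRT plantaris and 0 in HRT plantaris, where the median sum went from 15041 to 11928 CPM. Of 3 slow fibre genes 2 were called lower in LRT plantaris, and the 3 fibroblast genes all were, from a median sum of 501 to 199 CPM. In HRT plantaris 2 of the 3 fibroblast genes were called lower, from a median sum of 637 to 283 CPM. The slow fibre gene Pln (0.95, adjusted p = 0.0066) was called higher there, while Casq2 (-1.04) and Fabp3 (-0.98) lay below zero and were not called. The slow fibre sum went from a median of 432 to 238 CPM. Of the 6 adipocyte genes 2 were called higher and 3 had negative values. All 6 red blood cell genes lay above zero (0.82 to 1.94), and none was called. Their sum was 3078 CPM in HI replicate 5 and between 242 and 471 CPM in the other HI libraries. The adipocyte genes, of interest because fat cells also express Gpd1, had summed levels of 114 to 232 CPM in LRT CTRL plantaris and 92.8 to 192 CPM in LRT HI plantaris over the 6 of 12 with an identifier, with 3 called higher and 3 lower. The part of these lists in the levels of the 4 genes was not tested.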

How the data were processed

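RNA from 24 plantaris and 24 soleus samples was sequenced. According to the paper's methods, the authors quantified reads with Salmon (0.9.1 in the submitters' processing notes) against rat Ensembl transcripts of Rnor_6.0 and summed them per gene, and the deposited values are estimated counts with no normalization between libraries. The labels and the paper name different library kits, so strandedness is unsettled. The counts, 66.0% not whole, were rounded. Groups came from the labels. Genes were kept by filterByExpr, scaled by TMM and tested with edgeR 4.0.16 (R 4.3.3) by quasi-likelihood with Benjamini-Hochberg adjustment, all libraries in 1 model of 8 groups and RIN (7.8 to 8.6). SE is the log2 fold change over the square root of F, and likeness used a prior count of 2. Alternatives used DESeq2 1.42.0, limma 3.58.1, other scalings, filters, blocks and left-out libraries. The chain was tested on simulated data. Totals had a median of 30.4 M counts. Intervals give the uncertainty of a mean difference, estimated from the spread between these rats, and do not span the single rats.

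Symbols came from identifier and symbol columns of the paper's gene tables, which pair 1141 of 31998 identifiers (3.57%). No position on Rnor_6.0 was used. Named genes are the 4 chosen, the 3 pathway genes with the smallest adjusted p per comparison and the 3 named genes most like each, and other named genes (such as Aldoc in LRT plantaris, Gaa and the shuttle genes in HRT plantaris, Mdh1 in HRT soleus, Mpc1 and Mdh1 between muscles, and the single marker genes) were added after their values were seen, and 1 gene that the rule names is not reported here. The members and lists were chosen with earlier results of these data known. Promoters and figures used Python 3.11.15, pandas 2.3.3 and matplotlib 3.10.9.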

Additional observations from a re-analysis of the deposited data

Results flagged for a closer look

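Of the 32 sets of 6 libraries examined (4 genes in 8 groups), 2 held a library far from the others, where chance alone gives about 1 in 20. Eno3 in HRT CTRL soleus was 1342 CPM in replicate 6, and the gap to the next library was 0.628 of the range of the group, above the critical value of Dixon's test at the 95% level for 6 libraries. Gpd1 in LRT HI soleus was 81.1 CPM in replicate 2, with a gap of 0.752 of the range.

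Pfkfb1 in HRT lay below the CTRL mean in all 6 HI plantaris libraries and above it in all 6 HI soleus libraries. The difference of the response, plantaris minus soleus, was tested as an interaction in edgeR and was -1.63 with an adjusted p of 0.198, so it was not called.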

How the results depend on the processing

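Of the 48 values of the 4 genes in 12 comparisons, no called value changed sign, and the genes called kept their calls in LRT plantaris and between the CTRL muscles under each planned setting that applied. Eno3 in HRT plantaris lost its call with all genes of any count (-0.69, adjusted p = 0.059) and with each muscle fitted alone (-0.68, adjusted p = 0.069), and ranged from -0.76 to -0.58 with 1 library left out. With both lowest LRT HI plantaris libraries left out, chosen after seeing the data, Pfkfb1 (-0.98) and Ppp1r3c (-0.75) lost theirs in LRT plantaris.

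Some calls were gained. Pfkfb1 in HRT soleus was called with each muscle alone (0.88) and without CTRL replicate 6, and ranged from 0.86 to 1.21 with 1 library left out. Eno3 between the lines in CTRL soleus was called by DESeq2 (0.74) and without HRT CTRL replicate 6 (adjusted p = 0.043), and ranged from 0.68 to 0.84. The muscle difference of the response in LRT was called for Eno3 with library totals (-0.92), limma-voom (-1.10) and DESeq2 (-0.998) and without LRT HI soleus replicate 1 or LRT HI plantaris replicate 5 or 6 (adjusted p = 0.042, 0.021 and 0.031), ranging from -1.22 to -0.84, and for Pfkfb1 with limma-voom (-2.08) and without LRT HI plantaris replicate 6 (adjusted p = 0.018), ranging from -1.98 to -1.36. The cause was not tested. Library totals without TMM moved the median of all genes by 0.24 in LRT plantaris.

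Same-numbered plantaris and soleus libraries correlated in their deviations at -0.05 to 0.39 (mean 0.23), over 0.1 in 22 of 24 pairs, and 22 libraries were closest to their own number, a hint that the numbers name rats. HI and CTRL numbers gave 0 of 24 over 0.1. With the replicate block, calls were gained by Eno3 (-1.06), Pfkfb1 (-2.02), Gpd1 (-1.79) and Ppp1r3c (-1.26) in the muscle difference of the LRT response, by Ppp1r3c between LRT CTRL muscles (0.77), by Pfkfb1 in HRT soleus (1.03) and by Eno3 between the lines in soleus (0.77). Between the muscles the block stood for the rat that the number may name. In the comparisons within soleus it grouped separate rats of both lines and treatments by number, a matching that the design does not give.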
